A study of Mus musculus with 27 samples.

Results

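The Hox genes encode homeodomain transcription factors and stand in 4 clusters, and 38 of them were found by symbol among the 30153 genes of the table and followed through 27 libraries of sorted mouse cells. In GENCODE M21 (GRCm38) cluster A lies on chromosome 6 and held 10 of them, cluster B on chromosome 11 held 10, cluster C on chromosome 15 held 9 and cluster D on chromosome 2 held 9. The cells came from hindlimb muscle, periosteum (the cell layer that covers bone) and bone marrow of Prx1-CreER/Ai14/Rag1 mice of both sexes aged 8 to 12 weeks. In these mice the Prx1 promoter drives a tamoxifen-dependent Cre that switches on the red reporter tdTomato, so that Prx1 cells and their progeny are tagged, and the Rag1 mutation leaves the animals without mature B and T cells. Cells were harvested 3 days after the last of 2 tamoxifen doses, and tdTomato cells without CD45 (the general leukocyte marker) were sorted from every tissue by the surface proteins CD105 and CD200. P1 is the fraction with CD200 and without CD105 (CD200+ CD105-), P2 lacks both proteins, and P3 carries CD105 with or without CD200. Each of the 9 groups had 3 replicate libraries, all groups shared the genotype and the tamoxifen, and there was no untreated group. The tissues are described as coming from the same animals without a record of which animal gave which library, so the tests below treat libraries as independent and measure the spread between these libraries only.

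Hox genes are expressed during development in an order that follows their place in the cluster, with the low paralog groups in anterior parts of the body and the high groups in posterior and distal parts. Paralog groups 9 to 13 of clusters A and D pattern the limb along its length, and cluster C genes such as Hoxc10 are known for hindlimb expression. Adult mesenchymal cells keep much of the Hox code of the site where they arose. The proteins bind DNA together with PBX, MEIS and PREP cofactors, and their clusters are held silent by Polycomb complexes where they are not used.

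High and low members of the family stood side by side in paralog group 10, whose members share nearly the same DNA-binding domain. The homeobox of each is shown because it shows how alike these transcripts are where they are most conserved, and how far reads can still tell them apart. The sequences were read 5′ to 3′ from the GENCODE M21 transcripts, run over 180 bases and encode the 60 residues of the homeodomain, and capitals mark the 50 positions where the 3 genes do not all have the same base.
Hoxa10: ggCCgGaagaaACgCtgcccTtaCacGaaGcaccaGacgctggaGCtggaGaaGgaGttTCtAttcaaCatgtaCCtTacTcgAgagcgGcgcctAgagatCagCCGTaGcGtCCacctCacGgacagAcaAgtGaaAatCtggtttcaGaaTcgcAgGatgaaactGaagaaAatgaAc
Hoxc10: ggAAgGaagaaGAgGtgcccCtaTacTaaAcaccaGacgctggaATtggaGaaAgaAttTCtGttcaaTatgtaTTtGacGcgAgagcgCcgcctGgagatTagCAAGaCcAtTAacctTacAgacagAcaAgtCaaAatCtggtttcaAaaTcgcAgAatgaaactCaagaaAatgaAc
Hoxd10: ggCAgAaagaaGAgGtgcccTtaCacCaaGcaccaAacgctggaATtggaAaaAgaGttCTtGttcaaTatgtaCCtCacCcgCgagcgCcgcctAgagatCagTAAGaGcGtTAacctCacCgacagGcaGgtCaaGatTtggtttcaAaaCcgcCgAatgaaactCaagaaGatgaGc
Hoxa10 lies at chr6:52231197-52240854 on the minus strand, Hoxc10 at chr15:102966796-102971893 on the plus strand and Hoxd10 at chr2:74691924-74695105 on the plus strand, and the printed stretches are exonic and coding. Their homeoboxes were identical at 145 positions between Hoxa10 and Hoxc10, 142 between Hoxa10 and Hoxd10 and 149 between Hoxc10 and Hoxd10. Over all Hox genes the median identity of 2 homeoboxes was 80.6% within a paralog group and 60.6% between groups. With all protein-coding transcripts of each gene pooled, 2 of 703 pairs shared a stretch of 50 bases, namely Hoxa6 with Hoxb4 and Hoxb9 with Hoxc9. Transcripts of other types were left out, so exons shared only through them were not compared.

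Some Hox genes overlap other genes, which limits how their reads can be told apart. In the annotation Hoxd3 and Hoxd4 share exons on the same strand, with 62.3% of the exon bases of Hoxd3 and 52.3% of those of Hoxd4 lying in another gene, and Hoxc5 and Hoxc10 share 166 bases. On the opposite strand, 52.9% of the exon bases of Hoxb3 and 27.3% of those of Hoxb2 lie against the antisense gene Hoxb3os, 35.0% of those of Hoxa11 against Hoxa11os and 20.4% of those of Hoxa7 against Hoxaas3. The library kit is not stated to keep the strand, so values of these genes may hold reads of their antisense partner, and the 11 noncoding genes of the clusters were not analysed here.

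The libraries differed in summed counts, detected genes and purity in ways that move with the groups. The sum of normalized counts was 8631881 to 26230908 per library, and 12396 to 21675 genes were above 0. This sum is taken after scaling between libraries and does not give the sequencing depth. Limb mesenchyme markers (Prrx1, Pdgfra, Col1a1 and 6 others) summed to 2588 to 8199 in bone marrow P2 against 4550638 to 8804338 in bone marrow P1 and at least 28896 in each library of the other groups, and Prrx1 itself was at 90.8, 69 and 170 in bone marrow P2. Most of the sum in bone marrow P1 was type I collagen, with Col1a1 at 2095399 to 4087530 and Col1a2 at 2357618 to 4585207. The matrix gene Dcn was at 74841 to 99236 in bone marrow P1, 111743 to 135690 in muscle P1 and 63.8 to 164 in bone marrow P2, so the sum does not rank groups by purity. In P2 the 4 globins took 44.2% to 47.3% of the total in bone marrow and 24.1% to 38.6% in periosteum, and they took at most 4.28% of any library elsewhere. Myofibril genes summed to 2485881 to 2993362 in muscle P2 and to at most 57801 elsewhere, and endothelial markers were highest within each tissue in P3. Leukocyte markers summed to 40966 to 229892 in bone marrow P2, 18409 to 64637 in bone marrow P1 and 12163 to 55337 in bone marrow P3. In periosteum P2 they summed to 6338, 97540 and 1261 in replicates 1, 2 and 3. Replicates were least alike in periosteum P2, with Pearson's r across genes of 0.631 to 0.672 on the log2 scale against 0.947 to 0.955 in muscle P3. The part of these other cells in the Hox values was not tested, and in bulk libraries fewer cells of a type and less RNA per cell cannot be told apart.

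By a fixed cut-off, Hox genes were most widely detected in muscle and least in periosteum. Counting a gene as detected when all 3 libraries of a group had a normalized count of 10 or more, 19 of the 38 Hox genes were detected in muscle P1, 15 in muscle P2 and 25 in muscle P3. In periosteum 8 were detected in P1, 3 in P2 and 6 in P3, and in bone marrow 16 in P1, 10 in P2 and 9 in P3. Detection of all genes differed too. Genes above 0 numbered 16805 to 17868 in muscle P1, 14863 to 16144 in muscle P2 and 19938 to 20299 in muscle P3. In periosteum they numbered 13175 to 15055 in P1, 13103 to 15368 in P2 and 12396 to 16585 in P3. In bone marrow they numbered 15330 to 15936 in P1, 18542 to 21675 in P2 and 16801 to 17447 in P3. The share of all genes passing the cut-off of 10 was not counted, so the ranking is not given as particular to Hox genes. The most common low value was 0.5 to 0.8 in muscle P3 and 2.8 to 3.2 in bone marrow P2, so 10 is not the same depth everywhere. The part of this in the Hox counts was not tested. Hoxc9, a posterior gene of cluster C, was the only gene detected in all 9 groups, and 11 genes were detected in none. The low count in periosteum P3 went with libraries that did not match each other, since 22 of the 38 genes were at 10 or more in some of its libraries and below 10 in the rest, against 4 in muscle P3. The normalized counts of all 38 genes summed to 935 to 4230 in muscle, periosteum and bone marrow P1, and to 403 to 1690 in P2 and P3 of bone marrow.

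**Figure D1:**
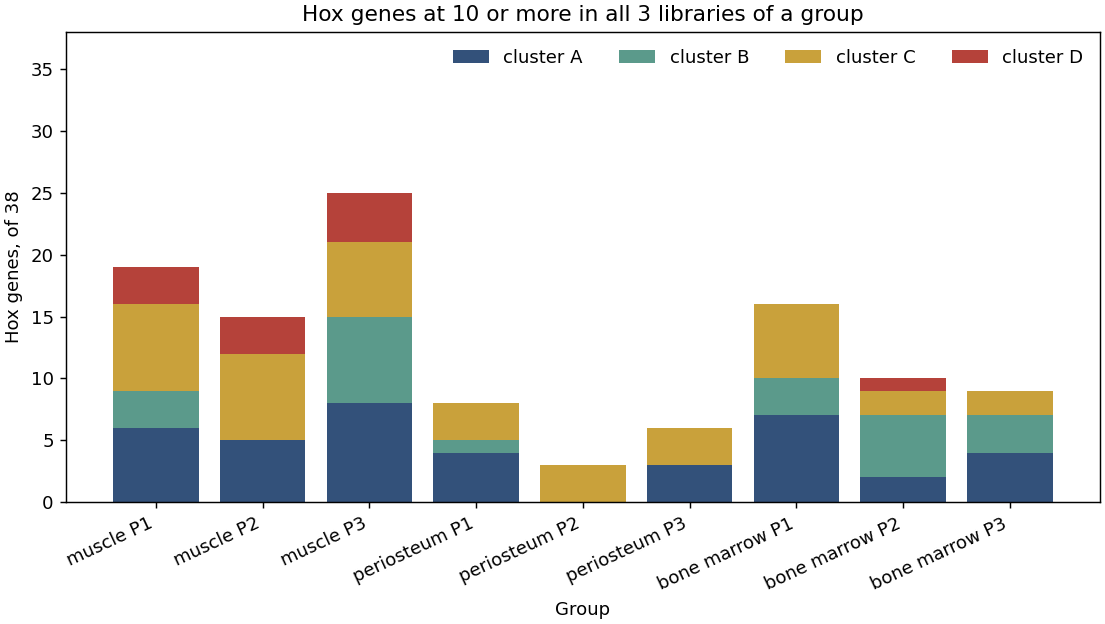
Number of Hox genes, of 38, with a normalized count of 10 or more in all 3 libraries of each group, stacked by cluster A to D. Muscle P3 stands highest with 25 genes and periosteum P2 lowest with 3, and cluster D contributes genes in muscle (3, 3 and 4 in P1, P2 and P3) and 1 in bone marrow P2.

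The share of each cluster in the summed Hox counts, which compares groups and not clusters, differed between groups. Cluster D genes made up 5.66% to 21.4% of the summed Hox counts in the muscle libraries, 0.0885% to 13.4% in the periosteum libraries and 1.03% to 19.4% in the bone marrow libraries. Cluster B genes were detected in muscle P3, where 7 of 10 passed, and not in muscle P2, where 0 of 10 passed and the cluster took 1.34% to 6.64% of the Hox sum. Cluster C took 40.1% to 73.8% of the Hox sum in periosteum P2, the most of any group by its median. By position, genes of paralog groups 4 to 8 were the most often detected in muscle P3, 13 of 15, while in periosteum P1 genes of groups 9 to 13 led with 5 of 16.

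Of the 38 genes 8 stayed near 0. Hoxb13 was listed at 0 in all 27 libraries, Hoxd1 reached 0.546 and Hoxd13 reached 9.56, and these were the 3 genes below 10 in every library. Hoxb8, Hoxc12, Hoxc13, Hoxd11 and Hoxd12 reached 11.7 to 42.1, with 10 or more in 1 or 2 libraries each, and did not pass the filter of 10 or more in at least 3 libraries. Hoxa13, which patterns the hand and foot, passed it with 23.6 in muscle P2, 51 in periosteum P3 and 10 in bone marrow P2, each in 1 library. That left 30 Hox genes among 18442 genes tested, and a gene that passed because 1 group was high had to differ, so the 30 are not the whole family.

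**Figure D2:**
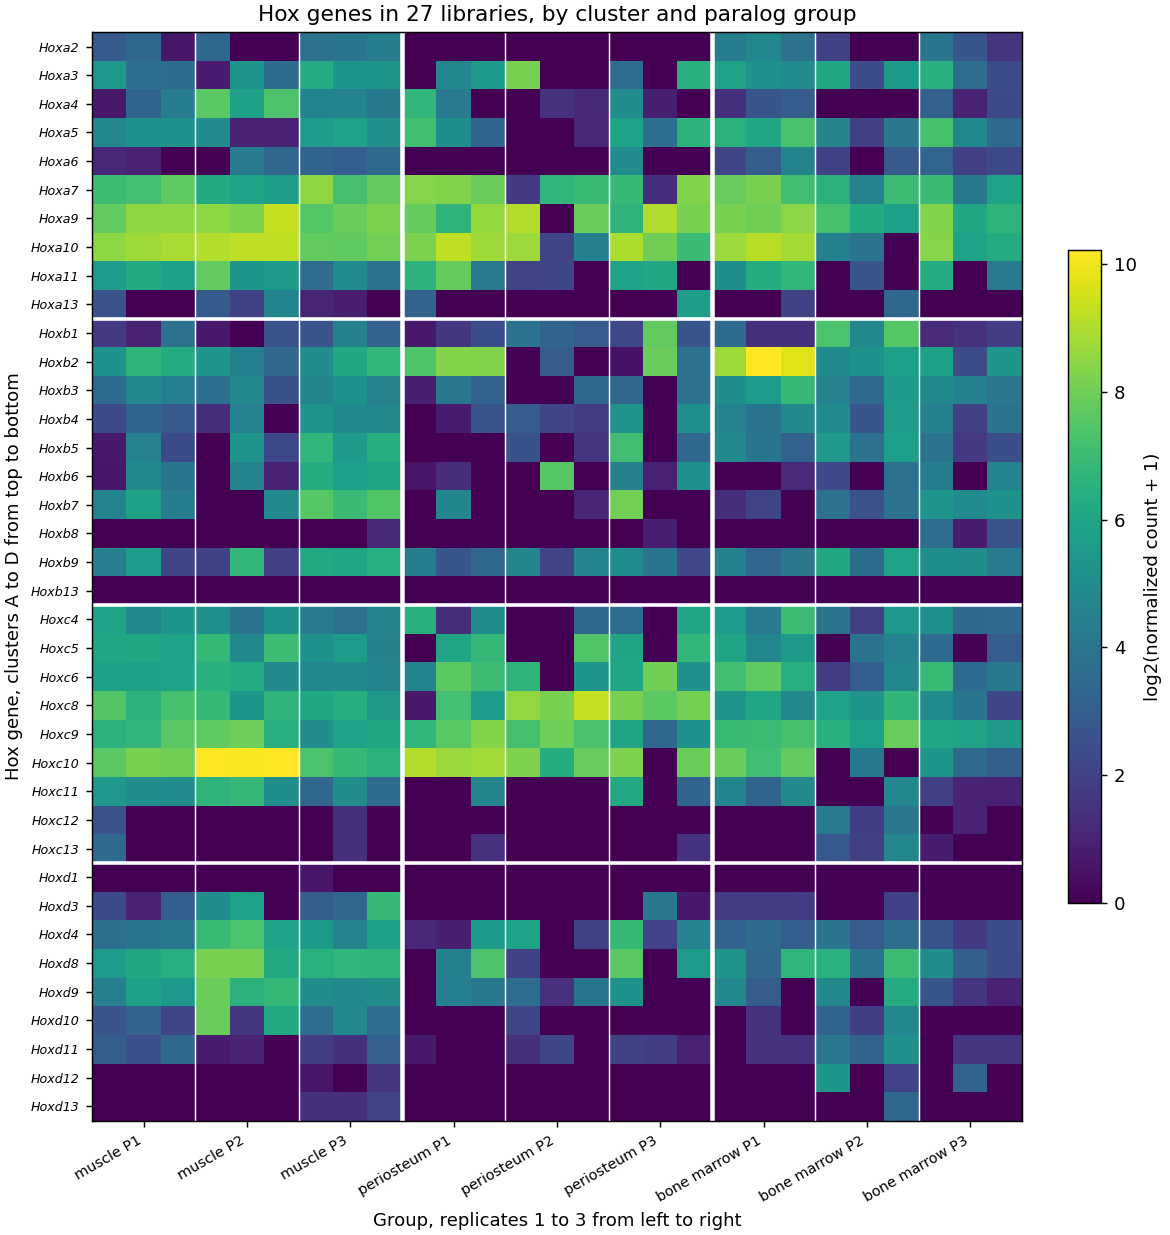
Log2(normalized count + 1) of the 38 Hox genes (rows, clusters A to D from the top, paralog groups in order within each) in the 27 libraries (columns, replicates 1 to 3 of each group). Hoxa7, Hoxa9, Hoxa10, Hoxc9 and Hoxc10 form bright rows across most groups, while Hoxb13 is at 0 in every column.

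Per kilobase of exon, a gene of paralog group 10 led in 5 of the 9 groups. Hoxc10 had 617 ± 8.87 normalized counts per kb in muscle P2, 243 ± 30.4 in periosteum P1 and 94.2 ± 83 in periosteum P3 (mean ± SD, n = 3 here and below) and was the highest of the family in each of these. Hoxa10 led in muscle P1 with 130.3 ± 18.4 per kb and in bone marrow P3 with 47.2 ± 46.1, and in muscle P1 the neighbour Hoxc10 at 127.6 ± 23.5 per kb lay within that spread. The exceptions were Hoxb7 in muscle P3 (105.2 ± 21.2 per kb), Hoxc8 in periosteum P2 (152 ± 66.9 per kb), Hoxb2 in bone marrow P1 (238 ± 109.5 per kb) and Hoxb1 in bone marrow P2 (53.2 ± 36.7 per kb). In bone marrow P2 the genes that followed, Hoxc9 at 50.9 ± 37.9 and Hoxd8 at 28.5 ± 21.3 per kb, differed from Hoxb1 by less than the spread. The second gene also lay within 1 SD of the first in muscle P3 (Hoxa7, 84.7 ± 38.2 per kb), periosteum P2 (Hoxc10, 106 ± 58.9), periosteum P3 (Hoxa10, 90.2 ± 58.2), bone marrow P1 (Hoxa10, 146 ± 21.2) and bone marrow P3 (Hoxa5, 33.6 ± 41.4), so the first gene stood clear of the second in muscle P2 and periosteum P1.

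Several broadly expressed genes of the family were not called between any groups. Hoxa9, a posterior gene also used by blood progenitors, lay between 54.0 and 648 in 26 libraries and at 0 in periosteum P2 replicate 2. Hoxa7 ranged from 1.56 to 363 with a median of 128, Hoxc9 from 10.1 to 322 with a median of 106 and Hoxc6 from 0 to 255 with a median of 55.1. Hoxa7, Hoxa9, Hoxc6 and Hoxc9 were called in none of the 17 comparisons, nor were Hoxa3, Hoxa13, Hoxb4, Hoxb6, Hoxb9, Hoxc4 and Hoxc5, which makes 11 of the 30 genes tested. To be called, a gene needed a log2 fold change beyond 1.5 in either direction and an adjusted p under 0.05 (limma on log2(normalized count + 1), Benjamini-Hochberg over the 18442 genes), and 19 Hox genes were called at least once.

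Muscle held more Hox RNA of cluster D and of several anterior genes than periosteum. Averaged over P1, P2 and P3, 10 of 30 Hox genes were higher in muscle and 0 were lower, against a background of 17.2% of all genes higher and 3.19% lower. The genes were Hoxa2, Hoxa4, Hoxb3, Hoxb7, Hoxc11, Hoxd3, Hoxd4, Hoxd8, Hoxd9 and Hoxd10. The log2 fold change was 2.10 to 3.76 for all of these but Hoxa2, which was listed at 0 in periosteum. The median over the 30 Hox genes was 1.5 and over all genes 0.56, values that were 0.57 and -0.01 after quantile normalization, under which 4 Hox genes were called. Without the P2 groups 4 were called, namely Hoxa2, Hoxb7, Hoxd3 and Hoxd10.

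The neighbours Hoxd8, Hoxd9 and Hoxd10, which take part in early limb patterning, were all higher in muscle than in periosteum. Hoxd10 was at 5.75, 8.31 and 3.40 in muscle P1, at 236, 2.03 and 72.7 in muscle P2 and at 12, 27 and 11.5 in muscle P3. In periosteum it was at 3.35 in P2 replicate 1 and listed at 0 in the other 8 libraries, so that every muscle library but 1 lay above every periosteum library. Hoxd9 was at 21.1, 56.5 and 43 in muscle P1, 236, 92.8 and 112 in muscle P2 and 32.2, 27 and 31.9 in muscle P3, and reached 36.5 in periosteum. Hoxd8 was at 48.5 to 106 in muscle P1 and P3 and at 285, 282 and 73.6 in muscle P2, and in periosteum at 0, 21.4 and 166 in P1, 2.94, 0 and 0 in P2 and 195, 0 and 47.8 in P3. For Hoxd8 the tissues overlapped through 2 periosteum libraries, in P1 and P3, each with a replicate at 0. Hoxd4 lay at 12.6 to 158 in muscle and reached 115 in periosteum, and Hoxd3, which shares exons with it, lay at 0 to 114 in muscle and at 0 in 7 of the 9 periosteum libraries.

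The genes of the other clusters called here were mostly low or uneven between replicates. Hoxa2 was listed at 0 in all 9 periosteum libraries, at 13.7, 14.7 and 19.2 in muscle P3 and at 18.6, 26.4 and 13.6 in bone marrow P1. Hoxb3 lay at 4.78 to 36.8 in muscle, at 0 to 15.9 in periosteum and at 10.3 to 114 in bone marrow. Hoxb7 was at 187, 125 and 176 in muscle P3 and at 264, 0 and 0 in periosteum P3, a group whose 3 libraries ran from the highest to the lowest value of that gene. Hoxc11 lay at 9.80 to 111 in muscle, and in periosteum was at 71.4, 23.8 and 8.80 in 3 libraries and at 0 in 6.

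Against bone marrow, muscle was higher in all 3 tested genes of paralog group 10, in Hoxc11 and again in cluster D genes, while Hoxa11 was not called. Of 30 Hox genes 8 were higher in muscle and 0 lower, with a background of 10.9% higher and 10.8% lower, and the medians were 1.01 for Hox genes and -0.10 for all genes. The genes were Hoxa4, Hoxa10, Hoxc10, Hoxc11, Hoxd3, Hoxd4, Hoxd9 and Hoxd10, with log2 fold changes of 2.31 to 4.02, the largest for Hoxc10 (limma, standard error 0.825, adjusted p = 5.98e-04). For Hoxd4 the muscle libraries lay at 12.6 to 158 and the bone marrow libraries at 2.31 to 14.5, with an overlap between 12.6 and 14.5. Without the P2 groups 3 were called, Hoxd3, Hoxd10 and Hoxb6, and Hoxa10 and Hoxc10 were not.

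Periosteum and bone marrow differed in both directions. Periosteum was higher in Hoxc8 and Hoxc10 and lower in Hoxa2, Hoxa6, Hoxb2, Hoxb3 and Hoxb5, which is 2 and 5 of 30 against a background of 4.01% higher and 16.8% lower. The log2 fold change was 2.91 for Hoxc10, 2.05 for Hoxc8 and -2.87 to -1.90 for Hoxa6, Hoxb2, Hoxb3 and Hoxb5, while Hoxa2 was listed at 0 in periosteum. The Hox median of -0.31 turned to 0.59 under quantile normalization, where the median of all genes moved from -0.69 to -0.10, so no direction is given for the family. This was the least stable of the 3 counts, as it was 3 without periosteum P1 replicate 2 or bone marrow P3 replicate 3, 4 without any of periosteum P1 replicate 1, bone marrow P1 replicate 2 or 3, bone marrow P2 replicate 1 or 3 or bone marrow P3 replicate 1, and 2 without the P2 groups (Hoxa2 and Hoxb3). Hoxa6 reached 29.6 in periosteum P3 replicate 1 and was at 0 in the other 8 periosteum libraries, and Hoxb5 likewise reached 136 in that library and was at 9.92 or less in the rest.

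**Figure D3:**
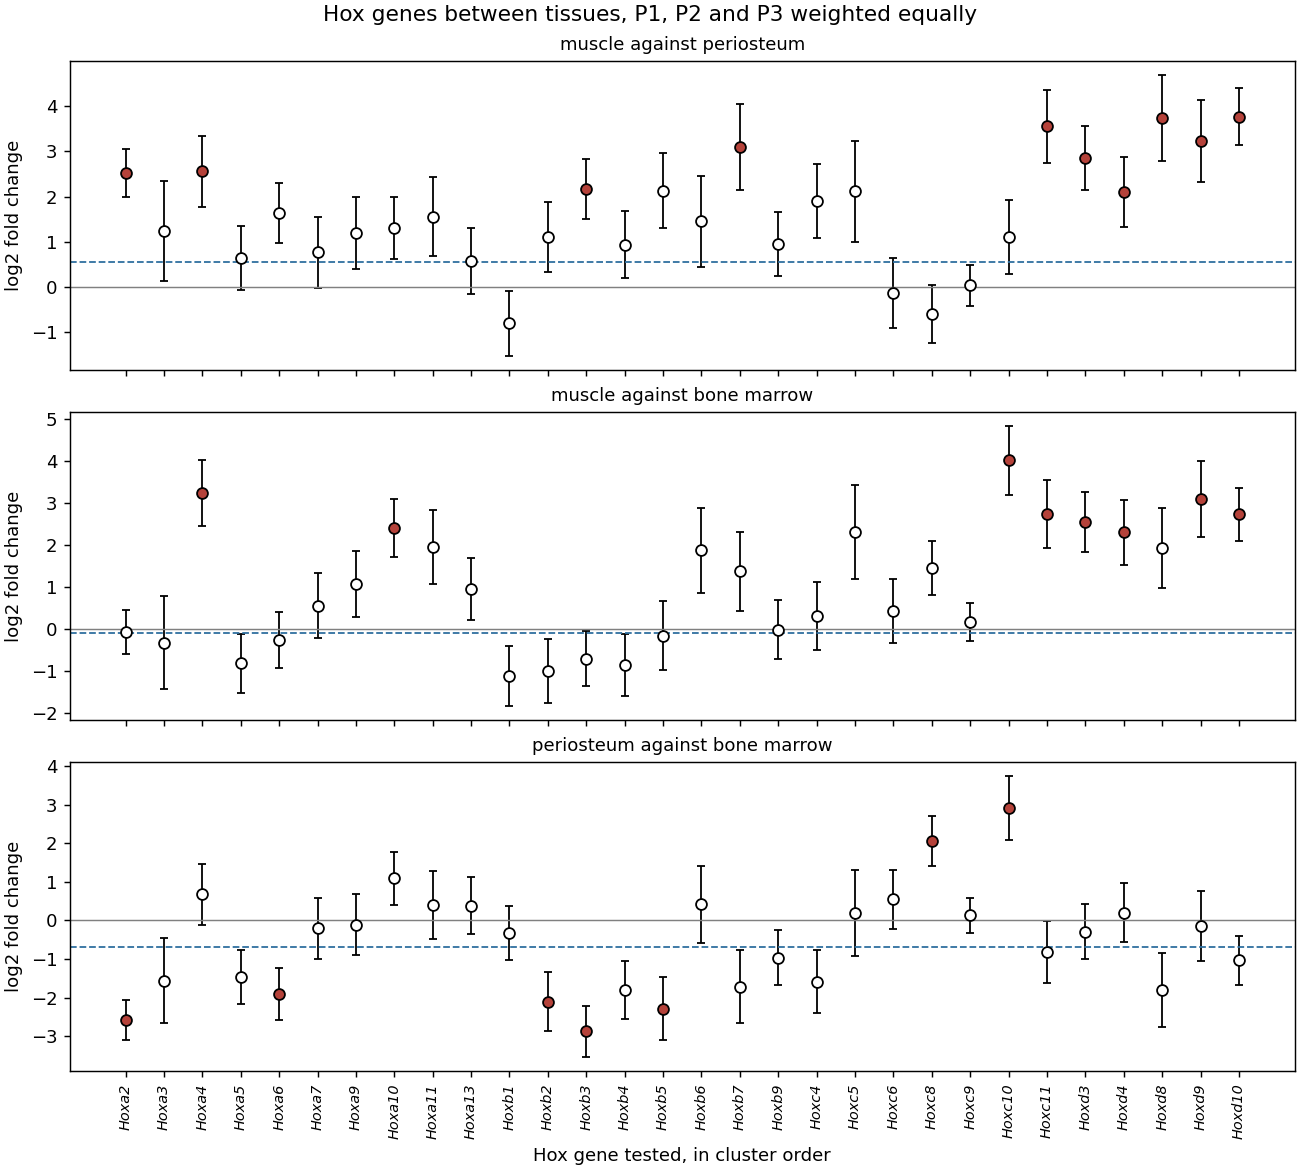
Log2 fold change with its standard error (limma) for each of the 30 Hox genes tested, in cluster order, between tissues with P1, P2 and P3 weighted equally. Filled points were called, the grey line is 0 and the dashed line is the median of all 18442 genes. Filled points of cluster D stand at 2.10 to 3.76 in muscle against periosteum, and Hoxc10 stands highest in both comparisons with bone marrow.

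P1 had the fewest Hox calls between tissues, and the share of all genes called there was also smaller than in P2. No Hox gene was called between muscle P1 and periosteum P1 (background 4.34% higher and 0.559% lower) or between muscle P1 and bone marrow P1 (5.40% higher and 2.94% lower), while 4 Hox genes in each had an unadjusted p below 0.05. Between periosteum P1 and bone marrow P1, Hoxa2 was called as lower in periosteum, where it was listed at 0 (limma, adjusted p = 0.0052), with a background of 1.91% higher and 2.96% lower. The Hox medians were 0.96, 0.08 and -0.71 beside 0.40, 0.06 and -0.27 for all genes, and the first and second were -0.21 and -0.40 under quantile normalization. Leaving out 1 library gave 1 call between muscle P1 and periosteum P1 (without periosteum P1 replicate 2 or 3), 1 between muscle P1 and bone marrow P1 (without periosteum P3 replicate 2) and 2 between periosteum P1 and bone marrow P1 (without periosteum P3 replicate 1). Hoxa10 overlapped between the 3 tissues, at 361, 437 and 480.0 in muscle P1, 291, 614 and 433 in periosteum P1 and 421, 554 and 454 in bone marrow P1. Hoxc10 was at 193, 279 and 258 in muscle P1, 528, 414 and 450.4 in periosteum P1 and 237, 136 and 218 in bone marrow P1, so the periosteum libraries lay above all others without a call.

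Hoxb2, an anterior gene of cluster B known from hindbrain segments, stood apart in P1. It was at 434, 1196 and 856 in bone marrow P1, at 167, 316 and 315 in periosteum P1 and at 36.7, 103 and 76.4 in muscle P1, with no overlap between the 3 tissues. These differences were not called in the fit over all groups. When the 2 groups were fitted alone, Hoxb2 was among the 3 Hox genes called between muscle P1 and bone marrow P1, and it was the 1 called there with a pseudocount of 5 or quantile normalization. Elsewhere Hoxb2 was at 109 or less, but for 236 in periosteum P3 replicate 2.

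P2 had the most Hox calls between tissues, and also the largest share of all genes called in each comparison and direction. Between muscle P2 and periosteum P2, 8 Hox genes were higher in muscle and 0 lower (background 17.6% and 10.4%), and between muscle P2 and bone marrow P2, 5 were higher and 1 lower (background 14.1% and 26.1%). Between periosteum P2 and bone marrow P2, 1 was higher and 3 were lower (background 4.65% and 15.4%). The Hox share was above the background for genes higher in muscle (26.7% and 16.7%) and below it in every other direction. The Hox medians of the 3 comparisons were 2.65, 0.96 and -1.04, beside 0.25, -0.74 and -1.13 for all genes, and under quantile normalization the Hox medians were 1.96, 2.39 and 0.60. The second was 0.37 with equal totals without globins. Against bone marrow P2, 10 Hox genes were called in muscle P2 without muscle P2 replicate 2 and 14 under quantile normalization. Muscle P2 was the group with high myofibril genes, and both other P2 groups those with high globins.

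Hoxc10 reached its highest and its lowest level in P2. It was at 1196, 1162 and 1177 in muscle P2, at 299, 79.3 and 229.5 in periosteum P2 and at 0, 16.7 and 0 in bone marrow P2, with no overlap between tissues. The log2 fold change of muscle P2 against bone marrow P2 was 8.82 (standard error 1.43, limma, adjusted p = 3.92e-05), and it ran from 7.18 to 11.06 over the alternatives, with bone marrow values near 0. Periosteum P2 was higher than bone marrow P2 by 6.09 (standard error 1.43, adjusted p = 0.00327), a call that was lost with these groups fitted alone (adjusted p = 0.0756).

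Hoxa10, a paralog whose protein-coding transcripts share no stretch of 50 bases with those of Hoxc10, was at 521, 605 and 609 in muscle P2, 425, 3.37 and 21 in periosteum P2 and 21.6, 14.4 and 0 in bone marrow P2. It was higher in muscle by 6.36 against bone marrow (standard error 1.19, adjusted p = 1.99e-04), and its muscle libraries lay above all others of P2. Hoxa4, a central gene of cluster A, was at 196, 57.5 and 163 in muscle P2, listed at 0 in bone marrow P2 (adjusted p = 3.31e-04) and at 1.73 or less in periosteum P2 (log2 fold change 6.08, standard error 1.36, adjusted p = 0.00167). Hoxc11 was at 99.9, 111 and 33 in muscle P2 and was listed at 0 in all periosteum P2 libraries (adjusted p = 0.00181). Hoxd8 was higher in muscle P2 than in periosteum P2 by 6.85 (standard error 1.64, adjusted p = 0.00302). Hoxa11, which patterns the forearm and shin, was at 219, 41.4 and 45.3 in muscle P2, at 0 to 3.39 in periosteum P2 and at 0 to 5.43 in bone marrow P2.

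Bone marrow P2 was higher than muscle P2 in Hoxb1 and higher than periosteum P2 in Hoxb2, Hoxb3 and Hoxd8. Hoxb1, the first gene of cluster B, was at 162, 25.9 and 183 in bone marrow P2 and at 0 to 5.17 in muscle P2, a log2 fold change of muscle against bone marrow of -5.42 (standard error 1.23, adjusted p = 0.00133). Outside bone marrow P2 it lay above 21.3 in 1 library, periosteum P3 replicate 2, at 217. Periosteum P2 was lower than bone marrow P2 in Hoxd8 by -5.17 (standard error 1.64, adjusted p = 0.0269), Hoxb2 by -4.30 (standard error 1.33, adjusted p = 0.0226) and Hoxb3 by -3.41 (standard error 1.14, adjusted p = 0.0353). Leaving out bone marrow P2 replicate 3 ended all 3 of these calls, with adjusted p = 0.11, 0.0781 and 0.144, and leaving out periosteum P2 replicate 1, 2 or 3 or bone marrow P2 replicate 1 ended 2 of them each. The count of 4 was then 1 without bone marrow P2 replicate 3 and 2 without periosteum P2 replicate 3 or bone marrow P2 replicate 1. All 3 calls were also lost with these groups fitted alone (adjusted p = 0.0624, 0.0854 and 0.19) and under quantile normalization, where Hoxd8 was at -3.67 (adjusted p = 0.095), Hoxb2 at -1.43 (adjusted p = 0.528) and Hoxb3 at -0.25 (adjusted p = 0.898). The 2 bone marrow P2 libraries with the most Hoxb1 were replicates 1 and 3, which also had most Hoxb4, Hoxb5, Hoxd8 and Hoxd9 of that group. The difference was not confined to these genes, as all Hox counts summed to 1128 and 1513 there and to 403 in replicate 2. Genes above 0 numbered 20610 and 21675 in replicates 1 and 3 and 18542 in replicate 2.

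**Figure D4:**
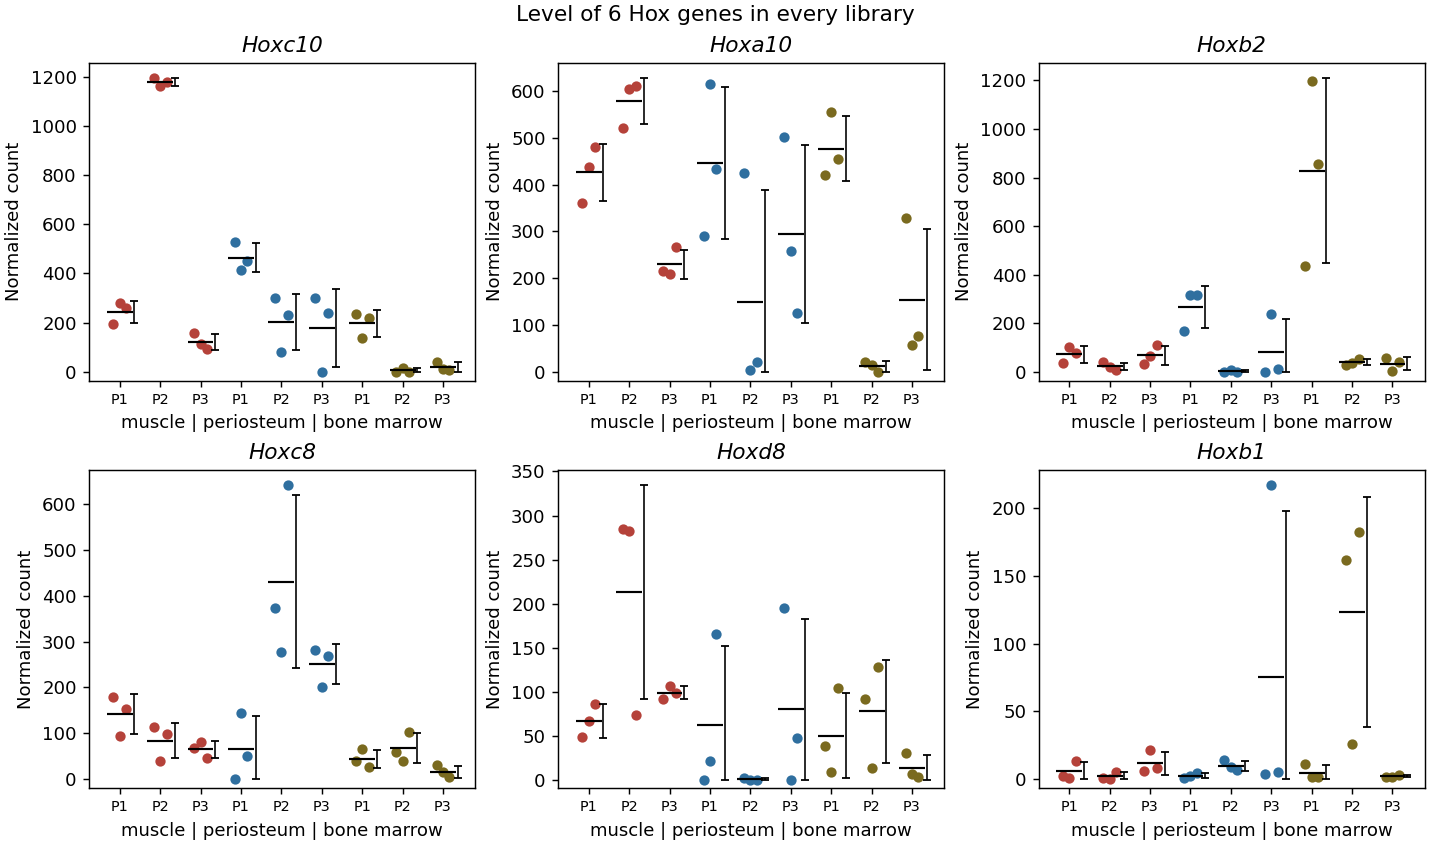
Normalized count of 6 Hox genes in every library, by subpopulation within muscle (red), periosteum (blue) and bone marrow (olive). Points are libraries, horizontal bars are means and error bars are 1 SD, drawn down to 0 where they would cross it. Hoxc10 lies at 1162 to 1196 in muscle P2, Hoxb2 at 434 to 1196 in bone marrow P1 and Hoxc8 at 201 to 642 in P2 and P3 of periosteum.

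In P3 few Hox genes were called between tissues. Endothelial markers summed to 29964 to 49456 in muscle P3, 17313 to 36611 in periosteum P3 and 2426 to 9357 in bone marrow P3, and their part in the Hox values was not tested. Hoxa2 and Hoxd10 were higher in muscle P3 than in periosteum P3, 2 of 30 with a background of 2.65% higher and 0.851% lower, and both were listed at 0 in periosteum P3 (adjusted p = 0.0131 and 0.0373). Hoxd3 and Hoxd10 were higher in muscle P3 than in bone marrow P3, where both were listed at 0 (adjusted p = 0.0194 and 0.0151, background 6.14% higher and 4.25% lower). In muscle P3 Hoxa2 was at 13.7, 14.7 and 19.2, Hoxd10 at 12, 27 and 11.5 and Hoxd3 at 7.10, 9.32 and 114. The Hox medians in P3 were 1.58 for muscle against periosteum, 1.75 for muscle against bone marrow and 0.37 for periosteum against bone marrow, beside 0.68, 0.35 and -0.36 for all genes, and under quantile normalization the Hox medians were 0.33, 1.09 and 1.11. The calls against periosteum were both lost without muscle P3 replicate 2 or 3, and those against bone marrow without bone marrow P3 replicate 2 or 3. The count against periosteum was 1 without muscle P3 replicate 1 or periosteum P3 replicate 2 or 3, and the count against bone marrow was 1 without muscle P3 replicate 2 or 3 and 11 with the 2 groups fitted alone.

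Hoxc8, a gene of the thoracic region, was the 1 Hox gene called between periosteum P3 and bone marrow P3 (background 2.95% higher and 3.99% lower). It was at 282, 201 and 269 in periosteum P3 and at 29.4, 14.6 and 3.36 in bone marrow P3, 4.29 apart on the log2 scale (standard error 1.12, limma, adjusted p = 0.0193). The groups did not overlap, but the call was lost without bone marrow P3 replicate 2 (adjusted p = 0.062) or 3 (adjusted p = 0.124), and the count was 2 without muscle P2 replicate 1 or periosteum P3 replicate 1 or 2. The central genes of cluster B were high in muscle P3, with Hoxb5 at 105, 45.8 and 82.2, Hoxb6 at 80.2, 53.2 and 61.3 and Hoxb7 at 187, 125 and 176. Bone marrow P3 had 2.26 to 14.4 of Hoxb5, 0 to 23.2 of Hoxb6 and 29.5 to 39.6 of Hoxb7, all below muscle P3, and none was called.

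P1 was set against the mean of P2 and P3 because the study treats P1 as the stem-like fraction. Over the 3 tissues, Hoxa5, Hoxa10, Hoxa11, Hoxb2 and Hoxc10 were higher in P1, 5 of 30 with none lower, and the background was 6.88% higher and 7.67% lower. The log2 fold change was 3.68 for Hoxb2 (standard error 0.664, limma, adjusted p = 2.79e-04) and 1.90 to 2.69 for the other 4. The Hox median was 0.33 and that of all genes -0.12. Without the P2 groups, that is against P3 alone, the count was 3. Hoxb2 stayed among these, the other 4 did not, and the rest of the 3 had not been called with P2. The count was also 3 without muscle P1 replicate 2 or 3 or bone marrow P1 replicate 3.

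Within single tissues most of these calls were in bone marrow. There Hoxc10 was higher in P1 by 4.89 (standard error 1.24, adjusted p = 0.00635), Hoxb2 by 4.66 (standard error 1.15, adjusted p = 0.00519) and Hoxa10 by 4.06 (standard error 1.03, adjusted p = 0.00636), with no overlap between libraries. Hoxa2 and Hoxa11 were called as well, which made 5 of 30 higher and 0 lower (background 7.48% and 11.5%). The Hox median was 1.24 and that of all genes -0.39. Without the P2 groups 2 were called, and 3 were called without bone marrow P1 replicate 1 or 2 or bone marrow P3 replicate 3. Hoxa10 was at 21.6, 14.4 and 0 in bone marrow P2 and at 328, 57.7 and 77.5 in bone marrow P3, and Hoxc10 at 42, 10.5 and 7.48 in P3. The summed limb mesenchyme markers, mostly Col1a1 and Col1a2, fell in the same order, from bone marrow P1 over P3 (40550 to 168554) to P2. So did Dcn, at 74841 to 99236 in P1, 1218 to 2564 in P3 and 63.8 to 164 in P2. Hoxb2 did not follow this order below P1, at 56.4, 4.2 and 40.1 in P3 and 28.9, 35.9 and 54.1 in P2. The part of cell content in these Hox values was not tested. Against P3 alone Hoxb2 and Hoxa10 were called and Hoxc10 was not (adjusted p = 0.160).

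In periosteum Hoxb2 was higher and Hoxc8 lower in P1 (1 and 1 of 30, background 4.32% and 4.84%). Hoxc8 was at 0.678, 145 and 49.6 in P1, at 373, 277 and 642 in P2 and at 282, 201 and 269 in P3, with no overlap and P1 lay at -3.78 on the log2 scale against P2 and P3 (standard error 0.971, limma, adjusted p = 0.0138). Without periosteum P1 replicate 1 it was -1.89 (adjusted p = 0.168), and against P3 alone -3.43 (adjusted p = 0.117). Hoxb2 was higher in P1 by 5.46 (standard error 1.15, adjusted p = 0.00298), with P2 at 0, 6.98 and 0 and P3 at 0.417, 236 and 13.4, and against P3 alone it was not called. The 1 Hox gene called against P3 alone was neither Hoxb2 nor Hoxc8. The Hox median in periosteum was 0.43 and that of all genes 0. In muscle no Hox gene was called (background 0.591% and 0.455%) and 2 had an unadjusted p below 0.05, with a Hox median of -0.15 that turned to 0.03 with library totals made equal.

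Whether a tissue difference depended on the subpopulation was tested with a limma F test of the interaction. It was called for Hoxa4, Hoxa10, Hoxb1, Hoxc8 and Hoxc10, 5 of 30 Hox genes, while 25.5% of all genes were called. The test does not say which group carries the interaction. No Hox gene was called in the interaction of P1 and P3 alone. The count was 0 without bone marrow P2 replicate 3, 1 without muscle P2 replicate 2 or 3 or bone marrow P2 replicate 1, 9 without periosteum P3 replicate 2, 2 without any of muscle P1 replicate 1 or 2, muscle P3 replicate 2 or bone marrow P1 replicate 2 or 3, and 3 without any of muscle P1 replicate 3, muscle P2 replicate 1, muscle P3 replicate 1 or 3, bone marrow P1 replicate 1 or bone marrow P3 replicate 3.

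Hox proteins bind DNA with cofactors of the TALE class. Of the 9 TALE cofactors (Pbx, Meis and Pknox genes), 2 were higher in muscle than in periosteum, 1 was higher in muscle than in bone marrow and 2 were lower in periosteum than in bone marrow, beside 17.2%, 10.9% and 16.8% of all genes in these directions. Pknox2, which encodes PREP2, was at 612, 1535 and 13892 in muscle P2 and at 4.76, 15 and 5.13 in periosteum P2, and over P1, P2 and P3 it was higher in muscle than in periosteum by 4.01 (standard error 0.687, adjusted p = 1.72e-04). Its muscle P2 libraries spread over a wide range and yet none overlapped periosteum P2. Meis3 was at 1179.7, 982 and 665 in bone marrow P1, 765, 433 and 447 in periosteum P1 and 258 to 354 in muscle P1, and it was higher in P1 than in P2 and P3 by 2.51 (standard error 0.620, adjusted p = 0.00534). Pknox1 lay at 162 to 1410.2 in all libraries and was not called in a comparison over P1, P2 and P3 or over all tissues.

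Among the 15 Polycomb genes, 6 were higher in muscle than in periosteum and 0 lower, and 5 were lower in periosteum than in bone marrow and 0 higher, with medians of 1.36 and -1.55. Of all genes 17.2% and 16.8% were called in these directions, with medians of 0.56 and -0.69 that were -0.01 and -0.10 under quantile normalization. Ezh2, the methyltransferase found in dividing cells, was at 2254, 1921 and 1281 in bone marrow P2 and at 318, 203 and 239 in bone marrow P1, and it was lower in muscle than in bone marrow by -2.41 (standard error 0.328, adjusted p = 4.12e-06). Ezh1, Rnf2 and Cbx7 were the others of highest level, and of these Cbx7 was called between tissues, higher in muscle than in periosteum, with 9594 in muscle P2 replicate 3 and at most 570.0 in the other muscle libraries. Of the 10 MLL and H3K27 demethylase genes, 1 was higher and 1 lower in muscle than in bone marrow, beside 10.9% and 10.8% of all genes. Between periosteum and bone marrow 1 was higher and 2 were lower, beside 4.01% and 16.8%, with a list median of -1.44. The higher gene in both was Kdm6b, which removes the Polycomb mark, by 2.63 in muscle (standard error 0.383, limma, adjusted p = 1.02e-05) and 2.01 in periosteum (standard error 0.383, adjusted p = 4.44e-04).

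Retinoic acid induces anterior Hox genes, and 1 of its receptors was called between tissues, while its degrading enzyme varied with both tissue and subpopulation. Rarb, a receptor that is itself a retinoic acid target, was at 317, 128 and 234 in muscle P1, 186, 192 and 408 in muscle P2 and 139, 53.2 and 44.7 in muscle P3. It was above 1.67 in 1 of 9 periosteum libraries (48.8) and in 1 of 9 bone marrow libraries (32.7), and was higher in muscle by 6.48 and 6.70 (standard error 0.736 in each, adjusted p = 8.6e-07 and 1.72e-07). Cyp26a1, which degrades retinoic acid, was at 2793, 314 and 532 in periosteum P1, 1485, 1070.5 and 253 in periosteum P3 and 464, 207 and 315 in muscle P1, and at 0 in 8 of 9 bone marrow libraries. In periosteum P2 it was listed at 0 in every library, in muscle P2 at 0, 1.01 and 0.944 and in muscle P3 at 75.9, 18.8 and 54.2. Over P1, P2 and P3 it was not called between muscle and periosteum. Of the 9 genes of this list 5 were tested, and the Cdx genes, which induce central Hox genes in the embryo, reached 44.8 at most and did not pass the filter. Of the 5, 1 was higher in muscle than in periosteum, 2 in muscle than in bone marrow and 1 in periosteum than in bone marrow, with 0 lower in each. Beside these stood 17.2%, 10.9% and 4.01% of all genes higher.

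Of the 4 factors that set limb type, Pitx1, Tbx4 and Tbx5 were present in all 3 tissues, while Isl1 was nearly absent from periosteum. Isl1 was at 348 in periosteum P2 replicate 3 and at 5.01 or less in the other periosteum libraries. It lay at 0 to 95.0 in muscle and at 0.532 to 102 in bone marrow. Over P1, P2 and P3, 1 of the 4 was called with more RNA in muscle than in periosteum and 1, Pitx1, with less. Pitx1, the hindlimb factor, was at 1407, 270.0 and 340.1 in periosteum P1 and at 89.3, 127 and 94.5 in muscle P1, and over P1, P2 and P3 the log2 fold change of muscle against periosteum was -3.20 (standard error 0.619, limma, adjusted p = 6.02e-04). Tbx4, the hindlimb T-box gene, was lower in bone marrow, at 0 to 61, than in muscle, at 43.7 to 211 (log2 fold change of muscle against bone marrow 3.80, standard error 0.805, adjusted p = 8.17e-04). Tbx5, its forelimb counterpart, lay at 3.40 to 219 and was not called between tissues. Evx1 and Evx2, the even-skipped genes beside clusters A and D, reached 18.3 and 52.5.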

How the data were processed

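RNA of 27 libraries (9 groups with 3 replicates each) was sequenced in bulk. Per the labels and the study's methods, cDNA was made with SMART-Seq v4 and Nextera XT kits, and the authors trimmed the reads with Trim Galore, aligned them with STAR and scaled them with DESeq2. The authors deposited 1 table of normalized counts, a signal that is never negative and that compares libraries. The genome build, annotation and counting tool are not given in the sources used here. Whole reads could not be recovered from the table, so no count model was used and no counting error is given. Low values most often stood at 0.5 to 3.2, and lower or less exact levels cannot be read from a library.

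The Hox genes and gene lists were chosen with earlier results of these data known. Some genes are not reported here. A gene was kept when 3 or more libraries had 10 or more (18442 of 30153 genes). Limma 3.58.1 in R 4.3.3 (lmFit, contrasts.fit, eBayes with trend) was fitted to log2(normalized count + 1) with a mean for each group, two-sided, with Benjamini-Hochberg adjustment over all genes kept. Fold changes on this scale understate changes of low genes and depend on the pseudocount where a group is at 0. The fit was tested on simulated data. The rule named the 12 Hox genes of highest mean, those called between tissues or for P1 over all tissues, up to 3 in each direction of a comparison whose libraries do not overlap, and up to 4 of highest level in each list. Other names were chosen after their values were seen. Positions and lengths are those of GENCODE M21. Alternatives tried were a pseudocount of 0.1 or 5, no filter, a filter on a mean of 50, a replicate block, no trend, equal totals with and without globins, quantile normalization, groups fitted alone, a log2 fold change above 1 and each library left out. Leaving out the P2 groups was added after seeing the data. Computing used Python 3.11.15 with numpy 2.4.6 and pandas 2.3.3, and plots matplotlib 3.10.9.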

Additional observations from a re-analysis of the deposited data

Results flagged for a closer look

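For 5 Hox genes the difference between tissues was not the same in P1, P2 and P3 by the limma F test of the interaction, a test of the difference itself, which called 25.5% of all genes. The adjusted p was 0.0168 for Hoxb1, 0.0265 for Hoxc10, 0.0330 for Hoxa10, 0.0403 for Hoxa4 and 0.0457 for Hoxc8. All 5 calls needed the P2 groups, since 0 were called without them, and 0 were called without bone marrow P2 replicate 3.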

How the results depend on the processing

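Of 771 refits of 21 named results, which were chosen for libraries that do not overlap so that their direction could hardly turn, 722 kept the call and 49 lost it. Numbers below are Hox genes called, in the order of the comparisons of the report, and the cause of a change was not tested except where fewer genes or libraries entered. A mean filter of 50, which tests fewer genes, gave 1 for muscle against periosteum, 2 for muscle against bone marrow and 3 for periosteum against bone marrow, 0 for periosteum P1 against bone marrow P1, 3 for muscle P2 against periosteum P2, 2 for muscle P2 against bone marrow P2, 0 for muscle P3 against either tissue, 3 for P1 over all tissues, 3 for P1 in bone marrow and 2 for the interaction. With groups fitted alone there were 2 for periosteum against bone marrow, 1, 3 and 3 among the P1 groups, 4 for muscle P2 against periosteum P2, 1 for periosteum P2 against bone marrow P2, 11 for muscle P3 and 0 for periosteum P3 against bone marrow P3, and 1 and 0 for P1 in muscle and periosteum. Without a filter there were 4 for periosteum against bone marrow, 1 for muscle P1 against periosteum P1, 10 for muscle P2 and 8 for periosteum P2 against bone marrow P2, 1 for muscle P3 against periosteum P3 and 2 for periosteum P3 against bone marrow P3.

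A pseudocount of 0.1 gave 1 for muscle P1 against periosteum P1, 2 for periosteum P3 against bone marrow P3, 3 for P1 in bone marrow and 2 for the interaction, and one of 5 gave 3 for periosteum against bone marrow, 1 for muscle P1 against bone marrow P1 and 1 for muscle P3 against periosteum P3. Equal totals gave 4 for periosteum against bone marrow, 2 for both periosteum P2 and periosteum P3 against bone marrow, 3 for P1 in bone marrow and 1 for the interaction, and without globins 2 for periosteum P3 against bone marrow P3, 3 for P1 over all tissues, 3 for P1 in bone marrow and 2 for the interaction. Quantile normalization gave 4 for muscle against periosteum, 1 for muscle P1 and 14 for muscle P2 against bone marrow, 0 and 1 for muscle P3 against periosteum and bone marrow, 2 for periosteum P3 against bone marrow P3 and 8 for P1 in bone marrow. Without the P2 groups, an alternative chosen after seeing the data, there were 4, 3 and 2 between tissues, 3 for P1 over all tissues, 1 and 2 for P1 in periosteum and bone marrow and 0 for the interaction.

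With 1 library left out the counts ran from 9 to 12, 7 to 9 and 3 to 8 between tissues, 0 to 1, 0 to 1 and 1 to 2 in P1, 6 to 12, 5 to 10 and 1 to 6 in P2, 0 to 2, 0 to 3 and 0 to 2 in P3, and for P1 against P2 and P3 from 3 to 6 over all tissues, 0 to 0 in muscle, 1 to 3 in periosteum and 3 to 6 in bone marrow, and from 0 to 9 for the interaction. Same-numbered libraries did not deviate together (36 pairs of groups, mean r 0.000242, from -0.0592 to 0.0502), so the numbers were not taken as a pairing. With the replicate block the counts were 11, 8 and 6 between tissues, 9, 6 and 4 in P2 and 4 for the interaction.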
